A study of Mus musculus with 2 samples.

Results

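The miR-10, miR-99, miR-100 and miR-125 family was followed in small RNA sequencing of mouse liver. Members were the mature strands named miR-10a, miR-10b, miR-99a, miR-99b, miR-100, miR-125a or miR-125b, with either arm, in a deposited table of 281 mature miRNAs. The table held 6 of them, namely miR-99a-5p, miR-99a-3p, miR-99b-3p, miR-100-3p, miR-125a-3p and miR-125b-1-3p. RefSeq annotates 15 mature strands under these names in the mouse. The other 9 strands, among them all 4 of miR-10a and miR-10b and 6 of the 7 strands from the 5′ side of the hairpin (5p), are not listed and were not analysed here. Of the 8 annotated strands from the 3′ side (3p), 5 are listed. All 6 listed strands had at least 10 reads over both libraries.

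The samples were livers of C57BL/6 mice aged 3 months, 1 library labelled as wild type and 1 as DICER1 mutant, from a model of DICER1 syndrome. The column headers name the mutant hDICER1_Mut. The labels give neither the variant, its promoter, nor the number of animals behind a library, and the series description speaks of liver cancer without saying which sample is tumour tissue. With 1 library per genotype there is no spread between replicates. No difference was tested, every interval below is a 95% interval for counting error only, and genotype cannot be told apart from animal, tissue piece or library.

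The miR-10 family is an old group of animal miRNAs, and miR-125 is the mammalian relative of lin-4 of Caenorhabditis elegans. The hairpins of miR-99, miR-100 and miR-125 lie in clusters together with a let-7 hairpin, and those of miR-10 lie among the Hox genes. Dicer cuts each hairpin near its loop, its RNase IIIb domain releasing the 5p strand and its RNase IIIa domain the 3p strand. In miR-99, miR-100 and miR-125 hairpins the 5p strand is usually kept in Argonaute, where it guides repression of messenger RNAs, and the 3p strand is usually the discarded passenger. In human cells miR-99a-5p and miR-100-5p are known repressors of MTOR.

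The mature sequences show which listed strands could act on the same targets and which could share reads. They are given 5′ to 3′ from RefSeq on GRCm38.p6, with the seed (bases 2 to 8) in capitals, and miR-100-5p, which is not listed, is shown for comparison.
miR-99a-5p: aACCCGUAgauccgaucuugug
miR-100-5p: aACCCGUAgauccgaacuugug
miR-99a-3p: cAAGCUCGuuucuaugggucu
miR-99b-3p: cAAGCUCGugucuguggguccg
miR-100-3p: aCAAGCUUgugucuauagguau
miR-125a-3p: aCAGGUGAgguucuugggagcc
miR-125b-1-3p: aCGGGUUAggcucuugggagcu

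The 6 listed strands carry 5 seeds. miR-99a-3p and miR-99b-3p share the seed AAGCUCG, which no other annotated mature strand has, and match at 18 of 21 aligned bases. Each of the seeds of miR-100-3p, miR-125a-3p and miR-125b-1-3p belongs to that strand alone. Aligned without gaps, miR-125a-3p and miR-125b-1-3p match at 18 of 22 bases, and miR-100-3p matches miR-99a-3p at 17 of 21 bases when shifted by 1 base. The seed of miR-99a-5p is also that of miR-99b-5p and miR-100-5p. miR-100-5p and miR-99a-5p differ by 1 substitution, A16U, counted from the 5′ end with the base of miR-100-5p first. No source used here says how reads fitting both were counted, so the level of miR-99a-5p is uncertain to that extent.

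The hairpin of miR-99a was the only member hairpin with both strands listed, and is shown with its 5p and then its 3p strand in capitals.
Mir99a: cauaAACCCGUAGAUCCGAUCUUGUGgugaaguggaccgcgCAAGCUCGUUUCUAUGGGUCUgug

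In this hairpin 15 bases separate the strands, and the ends on either side of them are those that Dicer makes. In the other hairpins with a listed strand the gap is 12 bases for Mir100, 14 for Mir125a, 16 for Mir99b and 18 for Mir125b-1.

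The 5 hairpins lie on the plus strand in 3 clusters (GRCm38, the assembly of mm10). Mir99a, at chr16:77598936-77599000, lies with Mirlet7c-1 and Mir125b-2 within 47.4 kb, in an intron of the noncoding gene Mir99ahg. Mir100, at chr9:41531425-41531504, and Mir125b-1, at chr9:41581926-41582002, lie either side of Mirlet7a-2 within 50.6 kb, in introns of the noncoding gene 3110039I08Rik. Mir99b, at chr17:17830188-17830257, and Mir125a, at chr17:17830812-17830879, enclose Mirlet7e within 692 bases. They overlap Spaca6, a gene known for a role in sperm and egg fusion, Mir99b in an intron and Mir125a in an exon.

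The library totals behind the deposited RPM values (reads scaled to a common library total) were 11432192 reads for the wild type and 18480608 for the mutant, and the listed miRNAs held 81.8% and 61.2% of them. The authors' table lists strands that differed at least 2-fold on the authors' own scale. By RPM no listed strand had a mutant to wild-type ratio between 1.19 and 4.78, so a strand with a ratio in that range could not be seen. RPM counts whole reads, so levels of strands were compared without a length correction. A count of 3 reads corresponds to 0.262 RPM (wild type) or 0.162 RPM (mutant).

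By RPM, the 5 listed 3p strands were higher in the mutant liver by 6.80-fold to 44.5-fold, and the 5p strand miR-99a-5p lay within 2-fold. Of all 276 listed strands with at least 10 reads, 62.0% were at least 2-fold higher and 9.06% at least 2-fold lower. Among 3p strands the shares were 74.3% and 3.47%, and among 5p strands 53.4% and 9.71%. The median log2 ratio was 3.76 for the 5 member 3p strands and 3.48 for all 144 listed 3p strands. A call of higher was thus the common one among listed 3p strands, and the count of members does not set them apart. Strands listed as higher had RPM ratios of at least 4.78, so the calls of the member 3p strands followed from the listing.

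miR-99a-5p, the usual guide strand, had 4071 reads in the wild type and 7492 in the mutant, or 356 RPM (interval 345 to 367) and 405 RPM (396 to 415). The mutant level was 1.14-fold the wild-type level (interval 1.10 to 1.18). It was the most abundant listed member in the wild-type library, 10.5 times as abundant as the next listed one. Its direction depended on how the libraries were scaled. In the authors' deposited table it has a signed fold of -2.09, that is, lower in the mutant.

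miR-99a-3p, from the same hairpin, had 389 reads in the wild type and 9483 in the mutant, or 34.0 RPM (interval 30.7 to 37.6) and 513 RPM (503 to 524). This was 15.1-fold higher (interval 13.6 to 16.7). It was the most abundant listed member in the mutant library, where it stood above its 5p partner. The authors' deposited table gives it a fold of 6.32 in the same direction.

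miR-99b-3p, the passenger of the miR-99 paralogue on chromosome 17 that shares the seed of miR-99a-3p, had 40 reads in the wild type and 2878 in the mutant. Its level was 3.50 RPM (interval 2.50 to 4.76) in the wild-type liver against 156 RPM (150 to 162) with the mutation. At 44.5-fold higher (interval 32.6 to 62.4) it had the largest ratio of the 6 members. Of 144 listed 3p strands, 24 had a larger ratio. Its ratio was 2.92 times that of miR-99a-3p, with a Woolf interval of 2.11 to 4.05 that excluded equality. The strands with the seed AAGCUCG were therefore unequally higher.

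The passengers miR-125a-3p and miR-125b-1-3p had like ratios, and they come from different clusters. miR-125a-3p had 23 reads against 505, or 2.01 RPM (interval 1.28 to 3.02) against 27.3 RPM (25.0 to 29.8), 13.6-fold higher (8.95 to 21.6). miR-125b-1-3p had 46 reads against 1014, or 4.02 RPM (interval 2.95 to 5.37) against 54.9 RPM (51.5 to 58.4), 13.6-fold higher (10.1 to 18.7). The quotient of the miR-125b-1-3p ratio over the miR-125a-3p ratio was 1.01, with an interval of 0.611 to 1.68, so a difference of that size in either direction could not have been seen at these depths.

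miR-100-3p, the passenger of miR-100, was the rarest listed member, with 7 reads in the wild type and 77 in the mutant. These were 0.612 RPM (interval 0.246 to 1.26) and 4.17 RPM (3.29 to 5.21). It was 6.80-fold higher (interval 3.15 to 17.5), the smallest ratio among the member 3p strands and the least precise.

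**Figure D1:**
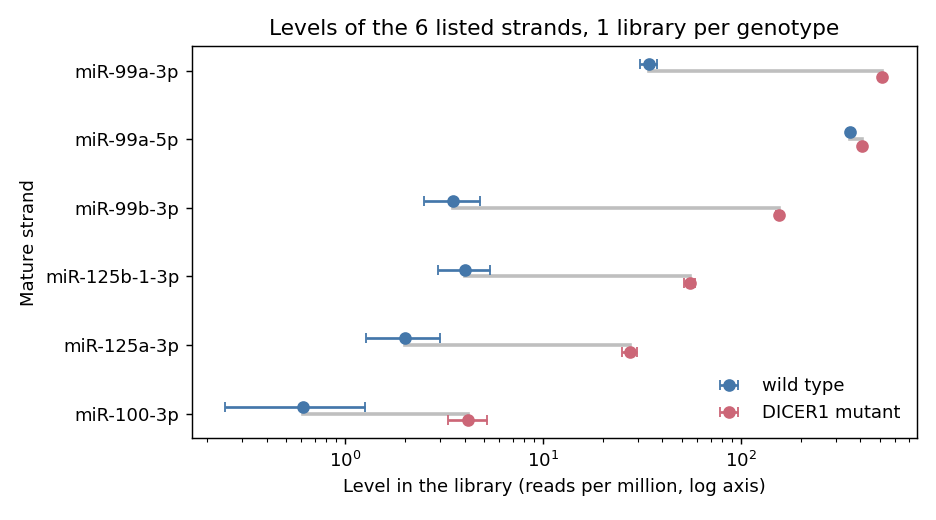
Level of each listed member strand (RPM, log axis) in the wild-type library (blue) and the DICER1 mutant library (red), with Clopper-Pearson 95% intervals for counting error as whiskers, some smaller than the points. The 5 3p strands lie well to the right in the mutant, whereas miR-99a-5p stands at 356 and 405 RPM.

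Between members, 15 pairs of ratios were compared, and the counting interval of the quotient included equality in 5. These were the 3 pairs among miR-99a-3p, miR-125b-1-3p and miR-125a-3p, and the pairs of miR-125b-1-3p and of miR-125a-3p with miR-100-3p. miR-99b-3p lay above all others and miR-99a-5p below all others beyond counting error. By RPM, strands listed as lower had ratios of at most 1.19, and those listed as higher at least 4.78. miR-99a-5p was listed as lower and the 3p strands as higher. Its place below them therefore followed from the listing, and only the sizes of these quotients did not. The nearest pair to miR-99a-5p was with miR-100-3p, a quotient of 5.62 (interval 2.65 to 11.9). These intervals do not depend on the scaling of the libraries.

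In order of level, the wild-type library had miR-99a-5p, miR-99a-3p, miR-125b-1-3p, miR-99b-3p, miR-125a-3p and miR-100-3p. The intervals of miR-125b-1-3p and miR-99b-3p overlapped, as did those of miR-99b-3p and miR-125a-3p. In the mutant library the order was miR-99a-3p, miR-99a-5p, miR-99b-3p, miR-125b-1-3p, miR-125a-3p and miR-100-3p, with no overlap between neighbours. miR-99a-3p exceeded miR-99a-5p by 1.27 times there.

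The 6 strands together took 400 RPM of the wild-type and 1161 RPM of the mutant library, 2.90-fold higher (interval 2.81 to 2.99). Their 3p strands summed to 44.2 RPM and 755 RPM, 17.1-fold higher (interval 15.6 to 18.7), and to 10.1 and 242 RPM without miR-99a-3p, 23.9-fold higher (19.8 to 28.9). The 3p strands were 11.0% of the family's listed reads in the wild type (interval 10.1% to 12.0%) and 65.1% in the mutant (64.4% to 65.7%). miR-99a-5p went from 89.0% to 34.9% of these reads. As 6 of the 7 annotated 5p strands are not in the table, these shares describe the listed strands and not the family. The 5p strand was listed as lower and the 3p strands as higher, so the direction of the change in shares followed from the listing.

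**Figure D2:**
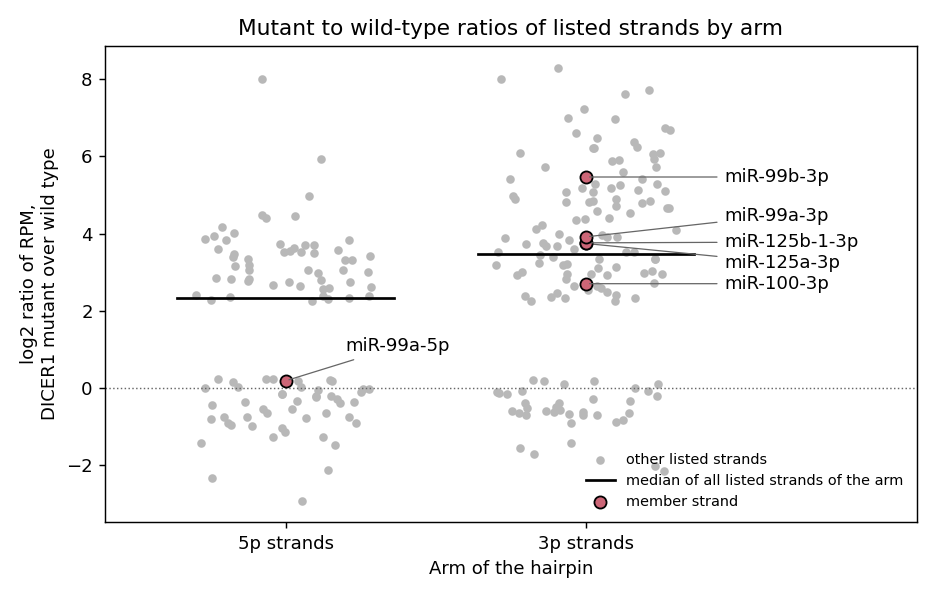
log2 ratio of RPM, DICER1 mutant over wild type, for listed strands with at least 10 reads (grey), by hairpin arm, with member strands in red and the median of each arm as a line. The empty band spans ratios from 1.19 to 4.78, where no strand is listed. Of the member 3p strands, 4 of 5 lie above the 3p median of 3.48, and miR-99a-5p lies below the 5p median of 2.33.

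Comparing arms within a hairpin removes the library scaling. In the wild-type liver 389 of 4460 miR-99a reads, 8.72% (interval 7.91% to 9.59%), came from the 3p arm. In the mutant liver 9483 of 16975 did, 55.9% (interval 55.1% to 56.6%). The listed counts thus gave 10.5 5p reads per 3p read in the wild type, and 1.27 3p reads per 5p read in the mutant. How reads fitting both miR-99a-5p and miR-100-5p were counted is not known. The 3p shares and the odds of this hairpin are uncertain to that extent. The odds of 5p against 3p, mutant over wild type, had a log2 ratio of -3.73 (Woolf interval -3.88 to -3.57), a 13.2-fold shift toward the 3p strand (interval 11.9 to 14.7). By RPM the shift came with a 15.1-fold higher 3p strand beside a 5p strand at 1.14 times its wild-type level. On the authors' scale the 5p strand was listed as lower and the 3p strand as higher, each by at least 2-fold. A clear shift toward 3p therefore followed from the listing of both strands, and only its full size did not.

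Among 62 hairpins with both arms listed and at least 10 reads per arm, 38.7% had odds at least 2-fold lower (toward 3p) and 3.23% at least 2-fold higher (toward 5p). Those toward 5p were miR-199b, which has the same 3p counts as miR-199a, and miR-582. The latter had 1 wild-type 5p read and an interval of -0.22 to 4.52. miR-299a and miR-299b had equal wild-type counts, so the 62 hairpins may not all be independent. The median log2 odds ratio was -0.53. miR-99a had the third lowest, after miR-1247 at -7.06 and miR-154 at -5.38, the latter resting on 1 wild-type 3p read. Its place is not separable by counting error from those of miR-26a, at -3.71 (interval -4.13 to -3.29), and miR-34a, at -3.48 (-5.81 to -1.16). The interval of miR-154, -7.75 to -3.01, included the miR-99a value as well. So did those of miR-127 (-3.88 to -2.85), miR-337 (-4.20 to -1.29) and miR-376a (-4.75 to 0.02). Of the 33 hairpins in which 3p reads were the minority in the wild type, 7 had a 3p majority in the mutant, with miR-99a the best covered of these at 4460 wild-type reads. No hairpin went the other way. Among the 7, miR-382 had 5 and 4 wild-type reads, and its odds interval, -2.97 to 0.67, included no shift. miR-337, miR-154 and miR-296 rested on 28, 32 and 40 wild-type reads. In 6 of the 62 hairpins, miR-99a, miR-26a, miR-30d, miR-219a, miR-185 and miR-30b, the 5p strand lay within 2-fold by RPM and the 3p strand was at least 2-fold higher. The reverse pattern occurred in 0 hairpins, and in 36 both arms were at least 2-fold higher. These patterns are counted by RPM and among listed strands only. A strand within 2-fold by RPM could be listed only with a ratio of at most 1.19, as lower on the authors' scale. In the 6 hairpins the arms were thus listed in opposite directions, and a shift toward 3p followed from the listing. Hairpins with an arm changed less than 2-fold on that scale are absent, so the rank of miR-99a holds among listed hairpins only.

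**Figure D3:**
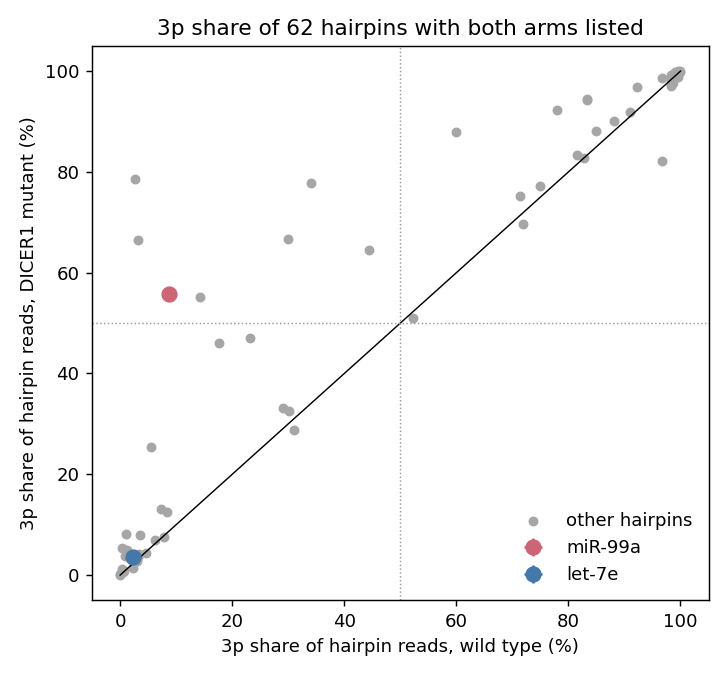
Share of a hairpin's reads that came from the 3p strand (%), wild type on the horizontal and DICER1 mutant on the vertical axis, for 62 hairpins, with equality as the solid line and 50% as dotted lines. miR-99a (red) moved from 8.72% to 55.9% and crossed the 50% line, whereas let-7e (blue) stayed near the origin at 2.22% and 3.57%.

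The let-7 hairpins of the same clusters lie beside the member hairpins and are known to be transcribed with them. let-7 restrains growth, and Mirlet7e lies between Mir99b and Mir125a. The table lists both strands of let-7e and the strand let-7c-1-3p, and no other strand of let-7e, let-7c or Mirlet7a-2. All 3 were at least 2-fold higher by RPM, beside 62.0% of all listed strands. Strands listed as higher had RPM ratios of at least 4.78, so for these 3 the call followed from the listing. let-7e-5p, at 4.82-fold, and let-7c-1-3p, at 5.14-fold, lay close to that limit.

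let-7e-5p had 1541 reads against 11996, or 135 RPM against 649 RPM, 4.82-fold higher (interval 4.57 to 5.08). let-7e-3p had 35 reads against 444, or 3.06 RPM against 24.0 RPM, 7.85-fold higher (interval 5.56 to 11.4). Both were higher by smaller ratios than their cluster neighbours miR-99b-3p and miR-125a-3p, although the intervals of let-7e-3p and miR-125a-3p overlapped. let-7c-1-3p, from the cluster of Mir99a, had 13 reads against 108, 5.14-fold higher (interval 2.88 to 9.96).

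Within the let-7e hairpin the 3p share was 2.22% (interval 1.55% to 3.08%) in the wild type and 3.57% (3.25% to 3.91%) in the mutant. Its log2 odds ratio was -0.69 (interval -1.19 to -0.19), at rank 28 of 62 from the lowest. The log2 odds ratio of miR-99a was lower than that of let-7e by more than counting error, with a difference of -3.04 (interval -3.56 to -2.52). Both hairpins had more 3p reads per 5p read in the mutant, and only for miR-99a of these did the major strand change.

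The non-member strands with log2 ratios nearest to miR-99a-5p were miR-3473b (26 reads against 48) and the abundant miR-21a-5p (30328 RPM against 34401 RPM, ratio 1.13). Nearest to miR-99a-3p were miR-379-3p (29 reads against 712) and miR-380-3p (6 against 154), with ratios of 15.2 and 15.9. Over 2 libraries such likeness means an equal ratio only.

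Listed markers of other liver cell types were higher in the mutant by RPM too, beside 62.0% of all listed strands and a median strand ratio of 6.69. Strands listed as higher had RPM ratios of at least 4.78, so the calls of higher for these markers followed from the listing. Marker ratios were taken by RPM only and not under the other scalings. Hairpins known from stellate and mesenchymal cells had 3 of 5 listed (miR-199a, miR-199b and miR-214). Their 5 strands, counting the identical values of miR-199a-3p and miR-199b-3p as 1, were all higher, and their sum went from 966 to 12339 RPM, 12.8-fold. All 5 biliary and epithelial hairpins (the miR-200 family) were listed, and their 7 strands went from 163 to 4451 RPM, 27.3-fold. The 6 leukocyte strands from 4 of 4 hairpins went from 1824 to 9674 RPM, 5.30-fold, which is under the median ratio of listed strands. The hepatocyte miR-122-5p went from 14951 to 7303 RPM. The endothelial miR-126a and the mesenchymal miR-143 and miR-145a are not listed, and no listed marker was at 0. In bulk tissue a changed number of cells of a type and a changed amount of RNA per cell cannot be told apart, and the part of cell composition in the member ratios was not tested.

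Changing the library scaling moves all ratios by the same factor. The authors' scaled values lowered each mutant to wild-type log2 ratio by -1.25 against RPM, and edgeR's TMM factors on the listed rows by -1.44. DESeq2 size factors on the listed rows shifted them by -2.73, and leaving the top miRNA of each library out of the totals by -0.58. The sum of listed counts raised them by 0.42. miR-99a-5p was 2.09-fold lower on the authors' scale, 2.39-fold lower with TMM, 5.81-fold lower with DESeq2 size factors and 1.32-fold lower without the top miRNAs. It was 1.52-fold higher with the sum of listed counts. TMM and DESeq2 size factors expect most rows to be unchanged, but all rows used for them were listed for differing at least 2-fold. The values under these factors therefore cannot settle the direction of miR-99a-5p.

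miR-99b-3p, miR-99a-3p, miR-125b-1-3p and miR-125a-3p were at least 2-fold higher under all 6 scalings, at 6.67, 2.28, 2.05 and 2.02-fold with DESeq2 size factors, the lowest of the 6. miR-100-3p was at least 2-fold higher under 5 scalings and at a log2 ratio of -0.024 with DESeq2 size factors. The split of members was 5 higher and 1 lower on the authors' scale and with TMM, and 4 and 1 with DESeq2 size factors, against 5 and 0 by RPM. Over all 276 strands 171 were higher and 25 lower by RPM (62.0% and 9.06%). On the authors' scale 171 were higher and 105 lower (62.0% and 38.0%). Calls on that scale were fixed by the listing, which took only strands at least 2-fold changed there. Strands listed as higher were therefore also called higher under each scaling that gave larger ratios than the authors' scale. TMM gave 154 and 105 (55.8% and 38.0%) and DESeq2 size factors 86 and 105 (31.2% and 38.0%). The members were split 5 and 0 with the sum of listed counts, beside 62.0% and 6.16% of all strands, and without the top miRNAs, beside 62.0% and 21.7%. The 1 lower call among 6 members was thus no more than the general share on the authors' scale, with TMM and with DESeq2 size factors. DESeq2 size factors are computed so that the median ratio of listed rows is near equality.

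**Figure D4:**
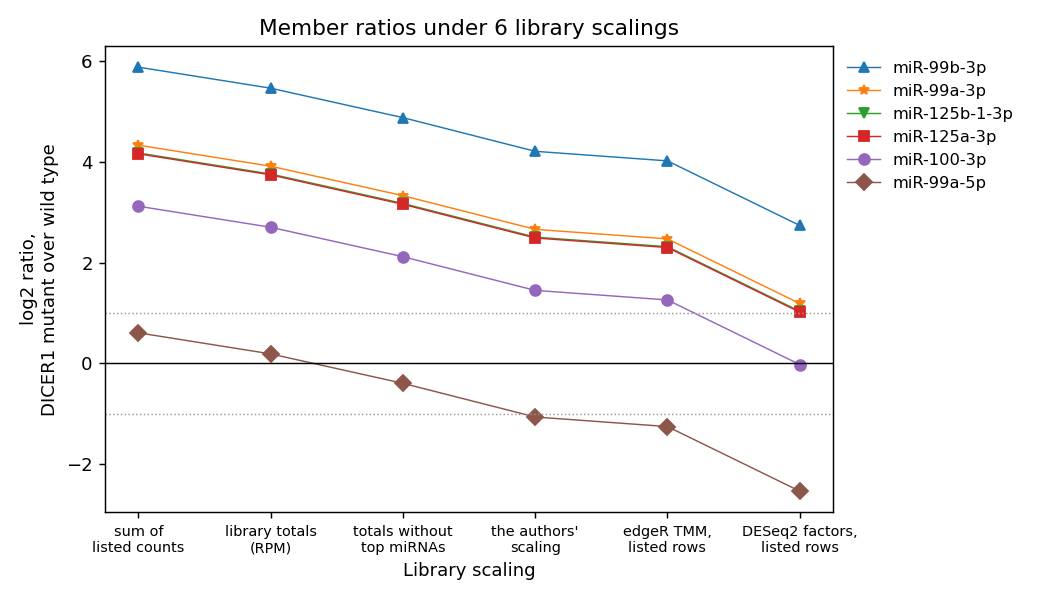
log2 ratio, DICER1 mutant over wild type, of each member strand under 6 library scalings (horizontal axis), with the solid line at equality and dotted lines at 2-fold in either direction. The distances between strands do not change; miR-99a-5p lies above equality with 2 scalings and below it with 4, and miR-100-3p falls to -0.024 with DESeq2 size factors.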

How the data were processed

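Per the labels' protocols, total liver RNA was turned into single-end small RNA libraries with the SMARTer smRNA-seq kit. Per the same protocols, reads were mapped to mm10 and miRBase 22.1 and assigned to an arm, and the submitters' processing notes list cutadapt. No aligner, rule for multiply matching reads or use of molecular identifiers was named in the sources used here. The deposited table holds raw read counts and RPM values per mature miRNA, log2 scaled values, a signed fold score and p-values. The deposited p-values rest on 2 libraries and were left out. The deposited count divided by RPM was constant within a library and gave the library totals. The deposited log2 values equal log2 of 1 plus RPM times a library factor.

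Ratios are of RPM, with exact conditional binomial (Clopper-Pearson) 95% intervals. Log2 ratios had 0.5 reads added. A strand was called past 2-fold by its RPM ratio, with at least 10 reads over both libraries. Odds ratios of 5p against 3p, with names differing only in a copy number summed, and quotients of ratios had 0.5 added and Woolf intervals. Intervals cover counting error only. They treat reads as independent, which PCR copies of a molecule are not, so they may be too narrow even for counting error. Sequences came from the RefSeq miRNA table (6 of 6 listed members matched) and loci from GENCODE M21. Named strands were all listed members, listed let-7 cluster partners and the 2 strands nearest in ratio to the most abundant 5p and 3p member; any other was chosen after seeing its value. The members and lists were chosen with earlier results of these data known. Python 3.11.15, scipy 1.17.1, edgeR 4.0.16 and DESeq2 1.42.0 were used, the last 2 for scaling factors only, and calculations were tested on simulated data. Alternatives were library scalings, pseudocounts, read minimums, the fold limit and copies kept apart.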

Additional observations from a re-analysis of the deposited data

How the results depend on the processing

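The median log2 ratio of the 6 members, 3.75 by RPM, was 2.50 on the authors' scale, 2.31 with TMM and 1.02 with DESeq2 size factors. The count of members at least 2-fold lower, 0 by RPM, was 1 on the authors' scale, 1 with TMM and 1 with DESeq2 size factors, miR-99a-5p each time, while lower calls over all 276 strands went from 9.06% by RPM to 38.0% under each of these. Its log2 ratio of 0.19 turned to -1.07, -1.26 and -2.54 there and to -0.40 without the top miRNAs. With DESeq2 size factors the log2 ratios of miR-100-3p, let-7c-1-3p and let-7e-5p turned to -0.024, -0.40 and -0.46. The let-7 partner strands at least 2-fold higher went from 3 by RPM to 1 with TMM and 0 with DESeq2 size factors, while higher calls over all strands went from 62.0% to 55.8% and 31.2%. These shifts follow from the factors, which move all strands alike. Calls on the authors' scale were fixed by the listing, and the TMM and DESeq2 factors rest on rows listed for differing. The log2 odds ratio of miR-99a stayed within its counting interval with 0.1 or 5 added, with at least 100 reads per arm (52 hairpins) and with copies kept apart (58 hairpins), and miR-99a ranked 3 from the lowest in both of these hairpin sets. Depth limits miR-100-3p most, with 7 wild-type reads. No paired analysis was possible because each genotype has 1 library.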
